A study of Mus musculus with 41 samples.

Results

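Prenatal metformin was compared with vehicle in the liver of 4-day-old male mice (C57/BL6NHsd) whose dams had eaten a high-fat diet (HFD) before and during gestation. The members were taken by their sample titles, as the 6 livers titled M_met_HFD_liver and the 6 titled M_ctrl_HFD_liver, which are 12 of the 41 arrays of the series. The metformin dams received the drug by mouth through most of gestation. Both groups shared the maternal HFD, the change of the dams to regular diet around birth, the sex and the age, so the pups themselves were neither dosed nor fed HFD. The rest of the series holds livers and brains of regular-diet (RD) offspring and subcutaneous fat of HFD offspring. RNA of each liver was hybridised to an Illumina Mouse WG-6 v2 array, on which many beads carry the same probe and the brightness of a probe follows the amount of its RNA. Each array holds 1 animal, and the question was which genes of the neonatal liver differ after metformin exposure before birth. Genes of the respiratory chain are left out of the account.

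Metformin lowers blood glucose mainly by acting on the liver, where it restrains mitochondrial respiration and glucose production, and it crosses the placenta. The liver of a newborn mouse is changing its role. Around birth it is still a site of blood formation, with erythroid, granulocytic and megakaryocytic precursors between the hepatocytes, and in the following days the blood-forming cells leave while hepatocytes switch on amino acid breakdown, urea synthesis and the metabolism of foreign compounds. The RNA of such a liver is a mixture, and in bulk tissue fewer cells of a type and less RNA per cell cannot be told apart.

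The share of the array's probes with a detection p under 0.05 (the chance of such a brightness among background probes) was 34.0% to 37.8% in the control livers and 30.97% to 39.9% in the metformin livers. The lowest shares were on the metformin liver 3R-6 and the control liver 1R-4. Values are log2 intensities after background correction and quantile normalisation of the 12 arrays together. A probe was kept when it was detected on every array of at least 1 group, which left 13296 probes of 8269 genes, each gene represented by its brightest kept probe. The brightest probe had passed through both groups in 7421 genes, through the control group only in 586 and through the metformin group only in 262. The animal codes begin with 1R (2 livers) or 1T (4) in the controls and with 10K (2) or 3R (4) after metformin. No code occurs in both groups, and whatever a code stands for cannot be told apart from the exposure. Nothing in the labels says whether pups of a group came from separate litters, and the tests measure the spread between these animals. The number of arrays limits the precision.

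The tissue label was checked against defining markers. All 5 hepatocyte markers (*Alb*, *Apoa1*, *Ttr*, *Ahsg* and *Serpina1b*) were detected on all 12 arrays. So were the 5 granulocyte precursor markers and the 5 megakaryocyte markers, the 3 erythroid markers on the array, 4 of 5 macrophage markers, 4 of 5 endothelial markers and 4 of 5 stellate cell markers. Of 8 markers of pancreas, muscle, fat, kidney, skin and gut, 5 were detected on no array (*Ckm*, *Acta1*, *Umod*, *Krt5* and *Fabp2*), and *Cela1*, a pancreatic protease gene, was detected on all. The bile duct markers *Krt19*, *Krt7* and *Epcam* were not kept. The control liver 1T-1 stood apart from the other 11. Its mean over the stellate and mesenchymal list was 6.93, against 7.56 to 7.81 in the other control livers, and its mean over the urea cycle list was 10.53, against 9.45 to 9.85.

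After metformin, 10 genes were higher (0.121% of the genes tested) and 4 were lower (0.0484%) at a Benjamini-Hochberg adjusted p under 0.05 (limma). The genes that fell were *Hhex*, a homeobox transcription factor needed for the formation of the liver, *Fh1*, the fumarase of the citric acid cycle, *Gstk1*, a mitochondrial and peroxisomal glutathione transferase, and *Abat*, which breaks down the neurotransmitter GABA and beta-alanine. Those that rose were *Mid1*, a ubiquitin ligase bound to microtubules, *Slc13a3*, a transporter of dicarboxylates, *Arhgef2*, an activator of the GTPase RhoA, *Luc7l2*, a splicing factor, *Zgrf1*, a DNA helicase, *Nrf1*, a transcription factor of genes for mitochondrial proteins, *Mpo*, the myeloperoxidase of neutrophil granules, *Rep15*, a Rab effector, *Kyat1*, a kynurenine aminotransferase, and *Gm26588*, a predicted gene. In all 14 the 6 metformin livers lay wholly above or wholly below the 6 control livers. Over all genes tested, 83 (1%) had every metformin liver above and 62 (0.75%) every metformin liver below the controls, and 3 of the 83 and 5 of the 62 had been kept only through the group in which they were brighter.

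*Hhex* was the clearest single change. Its log2 intensity was 8.79 at the lowest, 9.16 at the median and 9.68 at the highest in the control livers, and 7.90, 8.12 and 8.24 in the metformin livers. The lowest control liver thus lay above the highest metformin liver by more than the whole metformin range. The difference was -1.07 ± 0.15 (log2, SE), a level 2.10-fold lower (adjusted p = 0.0146, limma). Its promoter is shown because *Hhex* had the smallest p among the hepatocyte transcription factors (RefSeq, GRCm38.p6, chr19:37434591-37434890, plus strand, 250 bases before to 50 after the gene's start).
Hhex: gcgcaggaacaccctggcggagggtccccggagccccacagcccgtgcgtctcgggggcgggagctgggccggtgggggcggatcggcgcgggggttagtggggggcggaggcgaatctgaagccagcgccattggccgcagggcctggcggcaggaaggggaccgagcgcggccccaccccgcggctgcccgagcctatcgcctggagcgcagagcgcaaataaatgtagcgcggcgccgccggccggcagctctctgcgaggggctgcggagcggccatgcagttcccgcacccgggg
Capitals here and in the promoters shown for other genes mark the letters AGATAA (bound by GATA factors), TTGCNNAA (C/EBP factors) and GTTAAT (HNF1), searched on both strands, and the *Hhex* window held none of them. A match of letters is a description and not a binding site.

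*Fh1* was 10.38, 10.53 and 10.94 (lowest, median and highest log2 intensity) in the control livers and 9.79, 9.90 and 10.09 in the metformin livers, a difference of -0.66 ± 0.11 (SE, adjusted p = 0.0440). *Gstk1* was 10.10, 10.41 and 10.83 against 9.47, 9.74 and 9.91, a difference of -0.68 ± 0.13 (adjusted p = 0.0497). Both encode enzymes found in mitochondria, and in both the highest metformin liver lay below the lowest control. A second, dimmer probe of each also lay lower without passing the threshold (-0.20 for *Fh1* and -0.40 for *Gstk1*). *Mid1* had the largest difference among the called genes (1.42 ± 0.21, adjusted p = 0.0284), from 4.36, 4.87 and 5.07 in the control livers to 5.43, 6.09 and 6.83 in the metformin livers. It was near the dim end of the scale in the controls and was kept only through the metformin group, so that a difference was built into its selection.

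Of the 14 called genes, 5 were called through a probe other than their brightest one. For *Slc13a3* the called probe was its dimmest of 3 (4.62, 5.15 and 5.42 in the control livers, 5.73, 6.27 and 6.37 in the metformin livers, difference 1.10 ± 0.15, adjusted p = 0.0146), while its brightest probe differed by 0.36. The called and the brightest probe differed by 0.87 and 0.12 for *Luc7l2*, by 0.76 and 0.16 for *Nrf1*, by 0.65 and 0.12 for *Kyat1* and by -0.85 and -0.31 for *Abat*. Different probes of a gene can read different transcripts, and for these 5 genes the call holds for 1 probe and not for the gene as a whole. The called probes of *Slc13a3*, *Nrf1*, *Kyat1*, *Rep15* and *Mid1* had been kept only through the metformin livers. Probes without a single gene symbol accounted for 5 more calls, 3 higher and 2 lower.

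**Figure D1:**
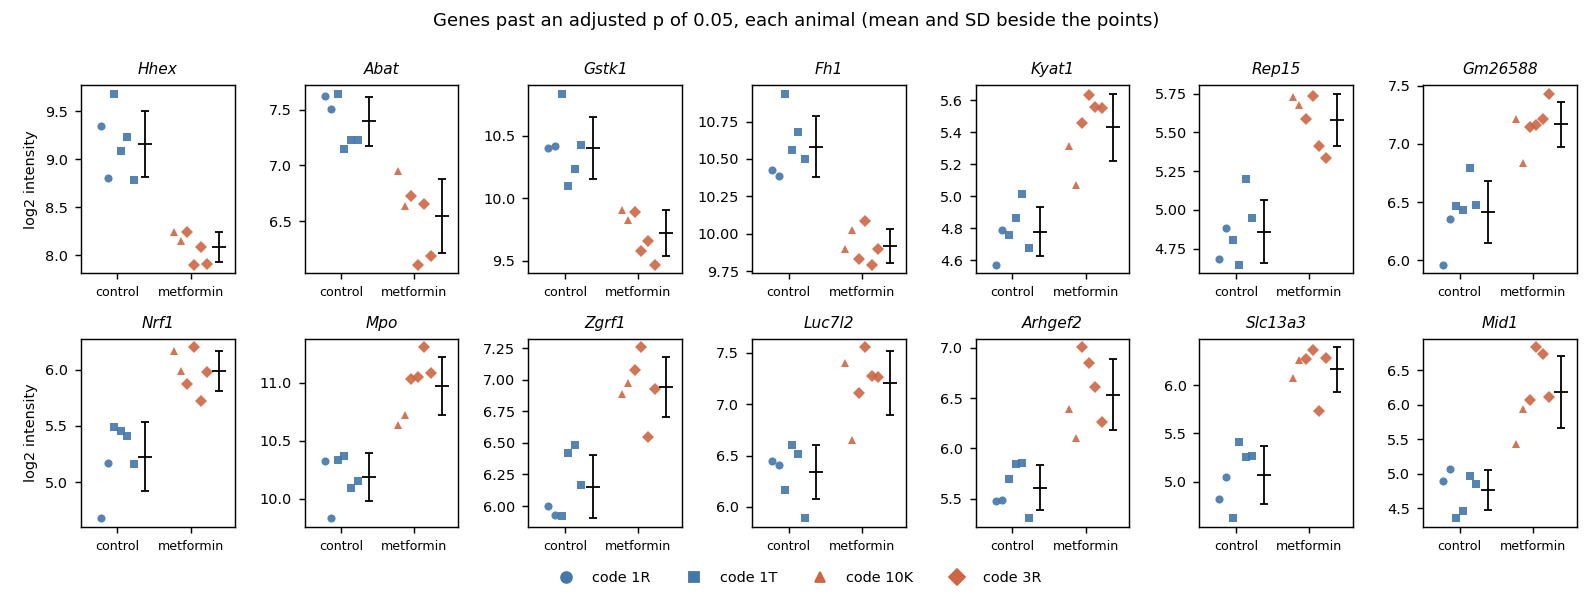
Log2 intensity of the 14 called genes in each of the 6 control and 6 metformin HFD livers, with the animal code as the symbol and the group mean and SD beside the points; where several probes were kept, the called probe with the smallest p is drawn. In every panel the 2 groups are separate, and for *Hhex* the controls lie between 8.79 and 9.68 and the metformin livers between 7.90 and 8.24.

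How many genes passed depended on which animals were in the fit. With the animal code as a random block, 3 genes passed (2 higher, 1 lower), all among the 14. With the 12 RD livers added to the normalisation and the model, the same contrast called 254 genes, among them all 14. Leaving out 1 liver at a time left 0 called genes without 1R-1, 3R-1 or 3R-2, 2 without 1T-2 or 1T-4, 3 without 1R-4, 3R-5 or 3R-6, 6 without 1T-3 or 10K-1, 31 without 1T-1 and 43 without 10K-2 (limma). In the fits with 0 called genes, 447 to 576 genes had an unadjusted p under 0.05 and a higher level, and 522 to 606 a lower one. At an unadjusted p under 0.05, 647 of all genes tested (7.82%) lay higher after metformin and 712 (8.61%) lay lower. The median log2 difference of all genes was 0.003, against which the counts and medians of each list can be read. When each array was centred on its own median in place of quantile normalisation, the median over all genes moved to -0.27, and 5 genes were then higher and 215 lower at that threshold. In that scaling no member of the erythroid, granulocyte, megakaryocyte, cell cycle or interferon lists was higher at an unadjusted p under 0.05, and their medians relative to all genes were 0.27, 0.14, 0.30, 0.22 and 0.20. The deposited normalised values of the same arrays gave 4 higher and 7 lower called genes, 6 of which were among the 14.

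The genes of the urea cycle lay lower as a group. The cycle turns the ammonia of amino acid breakdown into urea, and its enzymes are switched on in hepatocytes around birth. Of 9 measured genes of the cycle and of ammonia handling, 8 were lower after metformin and 7 were lower at an unadjusted p under 0.05, with a median difference of -0.63, and none passed the adjusted threshold. *Cps1*, which makes carbamoyl phosphate at the entry of the cycle, was 10.78, 11.18 and 12.66 (lowest, median and highest log2 intensity) in the control livers and 10.13, 10.40 and 10.78 in the metformin livers, a difference of -0.96 ± 0.24 (SE, adjusted p = 0.110). By this brightest probe all 6 metformin livers were below all controls, by a very narrow margin in 10K-2. A second, dimmer probe differed by -0.94, with overlapping groups. The control liver 1T-1 was more than 1 log2 unit above the next. *Asl*, which cleaves argininosuccinate, was 7.59, 8.003 and 9.04 against 6.21, 6.88 and 7.78 (-1.15 ± 0.25, adjusted p = 0.086), and only the metformin liver 10K-2 lay above the lowest control. *Arg1*, the arginase that releases urea, differed by -0.86 ± 0.30 (adjusted p = 0.178) and *Slc25a15*, the ornithine carrier of mitochondria, by -0.55 ± 0.16 (adjusted p = 0.129). Without 1T-1 the median of the list relative to all genes was -0.42 and 7 of 9 members still had an unadjusted p under 0.05, against 4 without the code 1T and 1 without the code 3R.

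Other routes of amino acid breakdown shared this direction. Of 34 genes of aromatic and other amino acid breakdown, 30 were lower, 12 of them at an unadjusted p under 0.05 and none higher at that level by its brightest probe, with a median of -0.20. The count of 12 was 4 without the code 1T and 6 without 3R. *Kyat3*, a kynurenine aminotransferase, differed by -0.73, *Aass*, the first enzyme of lysine breakdown, by -0.77 (kept only through the controls, in which it was brighter), *Gchfr*, the feedback regulator of tetrahydrobiopterin synthesis, by -0.56, and *Agxt*, which disposes of glyoxylate, by -0.49 (adjusted p = 0.086 to 0.112). In *Agxt* the 6 control livers were at 11.22 to 11.60 and the metformin livers at 10.69 to 11.24, with a narrow overlap. The called probes of *Abat* and *Kyat1* belong to this list and moved in opposite directions. Of 21 genes of branched-chain amino acid breakdown, 19 were lower, 8 of them at an unadjusted p under 0.05 (5 without 1R-1 or 3R-2, and without the code 1R or 3R), with a median of -0.25. *Mcee*, the methylmalonyl-CoA epimerase, was 9.89, 10.11 and 10.44 in the control livers and 9.49, 9.59 and 9.87 in the metformin livers (-0.50 ± 0.12, adjusted p = 0.108), with no overlap. *Ivd*, the isovaleryl-CoA dehydrogenase of leucine breakdown, was 9.15, 9.53 and 9.92 against 8.84, 9.09 and 9.30 (-0.43 ± 0.13, adjusted p = 0.138), and its groups overlapped.

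Methyl group metabolism, which supplies S-adenosylmethionine and disposes of its surplus, lay lower as well. Of 24 measured members 20 were lower, 7 at an unadjusted p under 0.05, with a median of -0.24. The count of 7 was 12 without 1T-1 and 5 without 3R-2 or without the code 3R. At that threshold 1 member was higher (*Mthfd2*, chosen here after its values were seen). *Nnmt*, which methylates nicotinamide, had the largest negative difference of any gene tested, from 5.55, 6.52 and 8.16 in the control livers to 4.53, 5.24 and 5.50 in the metformin livers (-1.50 ± 0.36, adjusted p = 0.108). It was dim after metformin and was kept only through the controls, which themselves spanned more than 2 log2 units. *Gnmt*, which uses up S-adenosylmethionine by methylating glycine, was among the bright transcripts. Its brightest probe was 11.66, 12.07 and 13.19 in the control livers and 11.13, 11.37 and 11.64 in the metformin livers. The difference of this probe was -0.80 ± 0.20 (adjusted p = 0.112), without overlap. *Cth*, which makes cysteine from cystathionine, differed by -0.86 and *Aldh1l1*, a folate enzyme, by -0.47, and neither passed (adjusted p = 0.108 and 0.142).

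**Figure D2:**
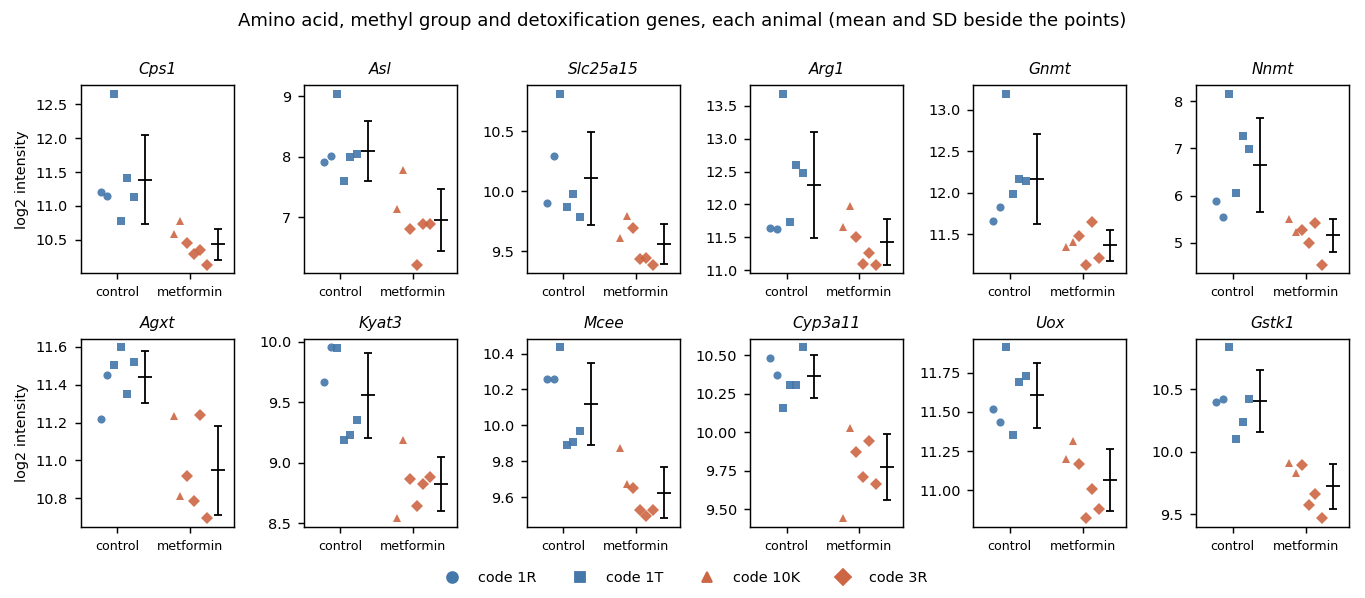
Log2 intensity of 12 genes of the urea cycle, amino acid breakdown, methyl group metabolism and detoxification in each animal, with the code as the symbol and the group mean and SD beside the points. The control liver 1T-1 is the highest point for *Cps1* (12.66), *Asl* (9.04) and *Gnmt* (13.19); among these 12 genes only *Gstk1* passed the adjusted threshold.

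Genes that attach glutathione, glucuronic acid, sulfate or methyl groups to foreign compounds and hormones were listed with others such as the quinone reductase *Nqo2*. Of 39 measured, 31 were lower, 17 of them at an unadjusted p under 0.05 and none higher at that level, with a median of -0.22. The count of 17 was the largest among the liver functions, but the list is also one of the longest. The share was larger in the urea cycle list (7 of 9). The mean of the list was 8.35, 8.39 and 8.52 (lowest, median and highest) in the control livers and 8.08, 8.12 and 8.26 in the metformin livers, so that every metformin animal was below every control. *Gstk1* was the member that passed. The count of 17 was 11 without the code 1R and 9 without 3R. Such a separation of list means was not particular to this list. It also held for methyl group metabolism, for aromatic and other amino acid breakdown and for the hepatocyte genes that rise after birth, described below. *Nqo2*, a quinone reductase, differed by -0.48, *Tpmt*, which methylates thiopurines, by -0.47 and *Gstm7*, a glutathione transferase, by -0.53 (adjusted p = 0.105 to 0.124). The promoter of the sulfotransferase gene *Sult1d1* (-0.72, adjusted p = 0.131) is shown as that of the member with the smallest p whose listed promoter holds the HNF1 letters (RefSeq, GRCm38.p6, chr5:87568957-87569256, minus strand).
Sult1d1: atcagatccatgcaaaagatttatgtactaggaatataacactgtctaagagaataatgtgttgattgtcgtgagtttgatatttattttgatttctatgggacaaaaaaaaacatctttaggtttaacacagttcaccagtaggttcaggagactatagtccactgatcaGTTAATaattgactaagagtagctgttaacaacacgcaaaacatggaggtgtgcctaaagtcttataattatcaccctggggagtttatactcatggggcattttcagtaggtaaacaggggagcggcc
Those letters were in 18.2% of 33 promoters of this list, in 4.31% of 6735 promoters of all genes tested and in 7.2% of all 27025 genes with a promoter in the table. They were in 31.6% of 38 promoters of the plasma protein list described below, whose median difference was -0.08, and in none of the 6 promoters found for the urea cycle list.

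Cytochromes P450, which oxidise drugs, steroids and fatty acids, had 27 of 37 members lower, 11 at an unadjusted p under 0.05 (7 without 1T-4 or 3R-2, and 5 without the code 3R) and none higher at that level, with a median of -0.13. *Cyp3a11*, the main drug-oxidising form of mouse liver, was 10.16, 10.34 and 10.55 in the control livers and 9.44, 9.79 and 10.02 in the metformin livers (-0.59 ± 0.11, adjusted p = 0.059), with no overlap. *Cyp4f14*, a hydroxylase of leukotrienes and fatty acids, differed by -0.79 (adjusted p = 0.078), and *Cyp2a5* and *Cyp2a12*, which hydroxylate coumarin and steroids, by -0.52 and -0.50. P450 genes are near-identical within a subfamily, and probes may cross-hybridise. For bile acid synthesis and transport the median was -0.20 over 25 genes, 6 of them lower at an unadjusted p under 0.05, among them the export pump gene *Abcc3* (-0.31), the FGF co-receptor gene *Klb* (-0.33), the sterol exporter gene *Abcg5* (-0.42) and the sterol carrier gene *Scp2* (-0.25). Relative to all genes this median was -0.09 without 1R-1 and -0.076 without 1T-1, and the count was 4 without 1R-4, 1T-1, 3R-2 or 3R-5, 3 without the code 1R and 2 without the code 3R or with arrays centred on their medians.

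Many of these genes are known to be switched on in hepatocytes around or after birth, and a list of 32 such genes lay lower too. Of its members 27 were lower, 13 at an unadjusted p under 0.05 (7 without the code 3R), with a median of -0.28. By their brightest probes 4 of the 32 (*Cyp3a11*, *Uox*, *Cps1* and *Gnmt*) had every metformin liver below every control, against 0.75% of all genes tested. Dimmer probes of *Cps1* (-0.94) and *Gnmt* (-0.93 and -0.51) had overlapping groups. This list shares *Cps1*, *Gnmt*, *Cyp3a11* and *Agxt* with the lists above and is no separate evidence. *Uox*, the urate oxidase, was 11.36, 11.60 and 11.91 against 10.82, 11.09 and 11.32 (-0.54 ± 0.12, adjusted p = 0.088). For 17 genes typical of the fetal and newborn hepatocyte the median was 0.05 (-0.07 relative to all genes with arrays centred on their medians), with 2 lower at an unadjusted p under 0.05. These were *Lpl*, the lipoprotein lipase, which the liver expresses mainly before weaning (-0.60 ± 0.16, adjusted p = 0.113), and *Acsl4*, which activates long-chain fatty acids (-0.39).

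Among secreted liver proteins some members lay lower while the list medians were near that of all genes. The median over 45 plasma proteins and apolipoproteins was -0.08, with 9 lower (5 without 1T-1, 3R-1 or 3R-2) and 2 higher at an unadjusted p under 0.05. No test compared this list with the ones above. The largest differences were those of *Rnase4*, a ribonuclease (11.44, 11.78 and 13.002 against 10.68, 10.95 and 11.32, difference -0.94 ± 0.22, adjusted p = 0.108), and *Ang*, angiogenin (-0.61 ± 0.17, adjusted p = 0.125). These are neighbouring genes that share a promoter region, and in both every metformin liver was below every control. *Selenop*, the selenium carrier of plasma, and *Serpina6*, which binds corticosteroids, differed by -0.33 and -0.42. A second, dimmer probe of *Selenop* went the other way (0.18). The brightest members, such as *Apoa1* and *Ahsg*, sit at the top of the intensity scale, where quantile normalisation fixes the values and small changes cannot be seen. The median was -0.06 over 28 complement genes, with 5 lower and 2 higher at an unadjusted p under 0.05. It was -0.12 over 26 coagulation genes, with 4 lower and 1 higher, and relative to all genes it lay between -0.04 and -0.076 without 1R-1, 1R-4, 1T-1, 10K-1 or 3R-6. It was -0.005 over 22 acute phase genes, with 2 in each direction. In these lists *C8g*, a chain of the terminal complement complex, was lower in every metformin liver (-0.45 ± 0.11, adjusted p = 0.108), *Tfpi*, an inhibitor of coagulation, differed by -0.76 (kept only through the controls) and *Lbp*, which binds bacterial lipopolysaccharide, by -0.53.

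The hepatocyte transcription factors and nuclear receptors had a median of -0.09 over 36 genes, with 4 lower and 3 higher at an unadjusted p under 0.05. Apart from *Hhex*, the members with the smallest p were *Nfe2l2*, the regulator of the antioxidant response (0.55, kept only through the metformin livers), *Onecut2*, a factor of liver development (0.38), and *Tcf7l2*, a partner of beta-catenin (0.30), all with adjusted p = 0.156 to 0.176 and with overlapping groups. With arrays centred on their medians *Onecut2* and *Tcf7l2* were at -0.04 and -0.02. A second, dimmer probe of *Onecut2* differed by 0.002.

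In energy metabolism the list medians were near that of all genes. Over 33 genes of fatty acid oxidation and ketone bodies the median was -0.09, with 4 lower at an unadjusted p under 0.05 (*Decr2*, the peroxisomal dienoyl-CoA reductase, -0.88, *Echs1*, -0.31, *Acadm*, -0.39 and *Eci1*, -0.24, enzymes of mitochondrial oxidation). A second, dimmer probe of *Echs1* differed by 0.02. *Acaa2*, the mitochondrial thiolase, shows how far probes of a gene can disagree. Its brightest probe differed by -0.09 and the other 3 by -0.67, -0.70 and -0.70 (adjusted p = 0.699 for the brightest, 0.108 to 0.119 for the others). Of 31 genes of glucose production, glycogen and fructose use, 4 were higher and 2 lower at an unadjusted p under 0.05, with a median of 0.02. *Tkfc*, the triokinase of fructose breakdown, was 10.65, 11.57 and 12.28 in the control livers and 12.27, 12.36 and 12.75 in the metformin livers (1.03 ± 0.23, adjusted p = 0.094), overlapping by a single narrow margin. *Pklr*, the liver pyruvate kinase, was at 0.76 (kept only through the metformin livers) and *Gcgr*, the glucagon receptor, at 0.29, whereas *Pcx*, the pyruvate carboxylase that starts glucose production, was at -0.25.

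For fatty acid and triglyceride synthesis the median was 0.02 over 26 genes (-0.14 relative to all genes with arrays centred on their medians). *Elovl6*, a fatty acid elongase (0.65 ± 0.21, adjusted p = 0.154), and *Mlxipl*, the carbohydrate-responsive factor ChREBP (0.37 ± 0.11, adjusted p = 0.144), had positive differences. By its brightest probe *Chpt1*, which makes phosphatidylcholine, was lower in every metformin liver (-0.59 ± 0.13, adjusted p = 0.088, kept only through the controls). None of these passed. Dimmer probes of *Chpt1* differed by -0.36 and -0.50, with overlapping groups. Cholesterol synthesis had a median of 0.02 over 19 genes and 2 members at an unadjusted p under 0.05, *Ebp*, a sterol isomerase (-0.32), and *Insig2*, an inhibitor of sterol synthesis (-0.54). The list of AMPK, its activators and metformin transporters also holds others such as *Gpd2* and *Tsc2*. Among its 13 genes the median was 0.05 and 2 were higher at an unadjusted p under 0.05. They were *Gpd2*, the mitochondrial glycerophosphate dehydrogenase (8.27, 9.001 and 9.52 against 9.17, 9.69 and 9.80, difference 0.62 ± 0.18, adjusted p = 0.126), and *Stk11*, the kinase LKB1 that activates AMPK (0.30 ± 0.10, adjusted p = 0.178, and -0.06 with arrays centred on their medians). *Slc47a1*, a transporter that exports metformin into bile, was at -0.17. For the IGF axis and imprinted growth genes the median was -0.01 over 28 genes, with *Peg10* (0.43, kept only through the metformin livers), *Phlda2* (0.59) and *Igfbp5* (-0.29) at an unadjusted p under 0.05.

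**Figure D3:**
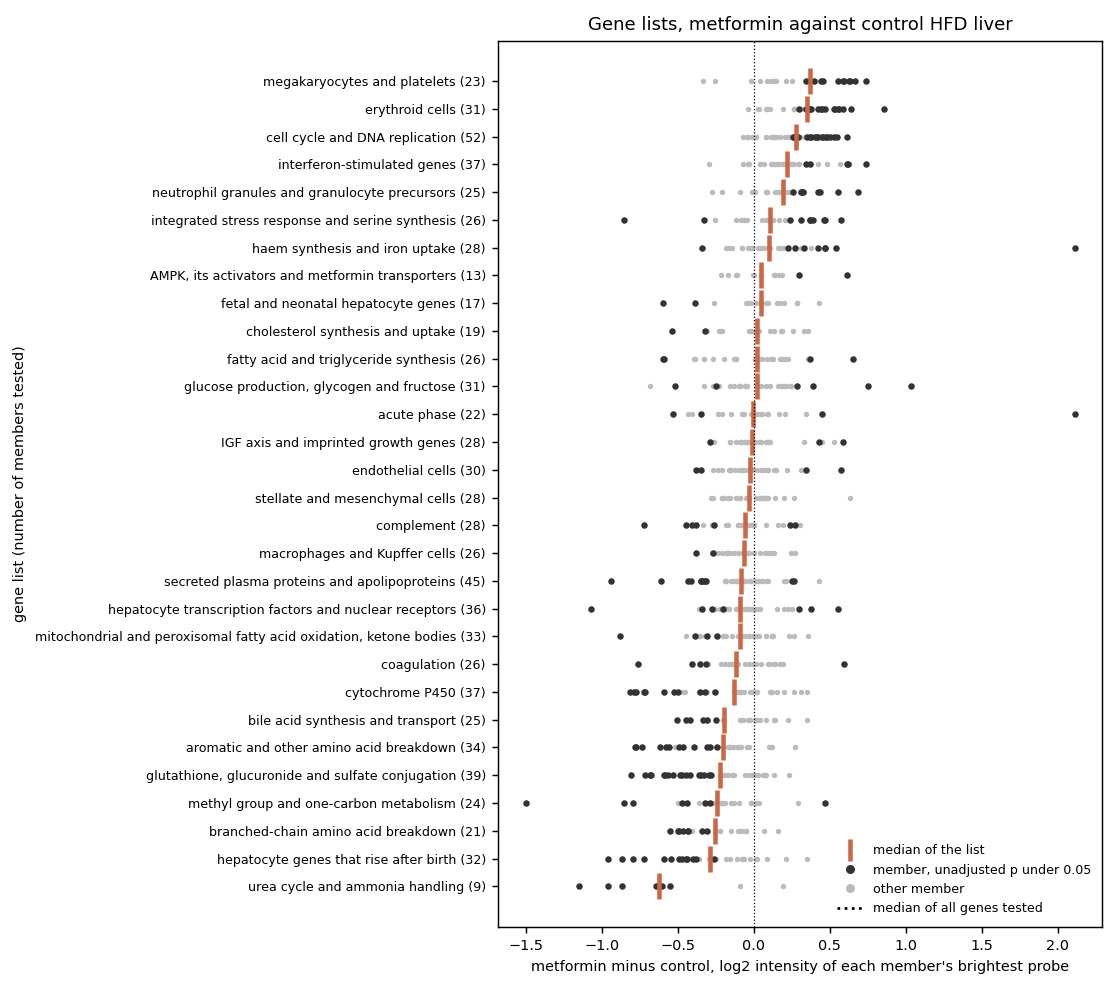
Difference between metformin and control HFD livers (log2 intensity) for every measured member of 30 gene lists, sorted by the list median, with members at an unadjusted p under 0.05 in black. Megakaryocyte (0.37), erythroid (0.35) and cell cycle genes (0.28) are at one end and urea cycle genes (-0.63) at the other; lists share members and were not tested as sets.

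Genes of blood-forming cells lay in the other direction. Of 31 erythroid genes 30 were higher after metformin, 16 at an unadjusted p under 0.05 and none lower at that level, with a median of 0.35, and none passed the adjusted threshold. *Samd14*, a regulator of stem cell factor signalling in erythroid precursors, was 8.25, 8.79 and 8.98 in the control livers and 9.03, 9.38 and 9.48 in the metformin livers (0.59 ± 0.13, adjusted p = 0.088), with no overlap. The urea transporter gene *Slc14a1*, the transcription factor gene *Nfe2* and the blood group gene *Kel* differed by 0.64, 0.44 and 0.56 (adjusted p = 0.108 to 0.142). Dimmer probes of *Slc14a1* differed by 0.02 and 0.33, with overlapping groups. The mean of the list was 8.17, 8.78 and 9.01 in the control livers and 8.81, 9.08 and 9.16 in the metformin livers. The lowest values were those of the 2 control livers coded 1R (8.54 and 8.17), and without that code the count at an unadjusted p under 0.05 was 9 of 31, without the code 1T 25, and without the code 3R, which leaves 2 metformin livers, 0. It was also 9 without the 2 arrays with the lowest share detected. The promoter of *Kel* is shown as that of the member with the smallest p whose listed promoter holds the GATA letters (RefSeq, GRCm38.p6, chr6:41704276-41704575, minus strand).
Kel: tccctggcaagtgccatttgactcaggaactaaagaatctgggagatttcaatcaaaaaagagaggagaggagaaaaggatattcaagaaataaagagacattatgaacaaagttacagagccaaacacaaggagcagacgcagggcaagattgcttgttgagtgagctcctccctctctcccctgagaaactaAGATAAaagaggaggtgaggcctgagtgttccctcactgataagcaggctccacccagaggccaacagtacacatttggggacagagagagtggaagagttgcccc
The letters were in 30% of 20 promoters found for the erythroid list and in 6.86% of those of all genes tested. They were in 11.4% of all 27025 promoters, and the erythroid list was not alone above that share. The shares were 23.8% in the granulocyte list, 20% in the megakaryocyte list, 15.8% in the plasma protein list and 15.2% in the conjugation list. They were 6.67% in the list of aromatic and other amino acid breakdown and 0 in the urea cycle list.

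Haem synthesis and iron uptake had a median of 0.10 over 28 genes (-0.02 relative to all genes with arrays centred on their medians), with 8 higher (2 without the code 1R and 0 without 3R) and 1 lower at an unadjusted p under 0.05. *Ppox*, *Blvrb* and *Alad*, enzymes of haem synthesis and breakdown, differed by 0.54, 0.27 and 0.43, and *Slc25a37*, the mitochondrial iron importer of erythroid cells, by 0.47 (adjusted p = 0.108 to 0.164). The brightest probes of *Ppox* and *Blvrb* had no overlap between the groups. Their second, dimmer probes differed by -0.002 and 0.32, with overlapping groups. With arrays centred on their medians *Blvrb*, *Alad* and *Slc25a37* were at -0.24, -0.06 and -0.009. *Hamp*, which encodes hepcidin, the hormone that restrains iron release, had the largest positive difference of any gene tested (2.11 ± 0.89, adjusted p = 0.237). The control livers ranged from 5.37 to 12.80 with a median of 9.36 and the metformin livers from 10.33 to 11.90 with a median of 10.92, so that the metformin values lay inside the control range.

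Granulocyte genes were higher as well, in a tissue where *Mpo* itself passed the threshold. Its brightest probe was 10.30, 10.70 and 10.85 in the control livers and 11.15, 11.26 and 11.61 in the metformin livers (0.69 ± 0.12, adjusted p = 0.0440), and a second probe differed by 0.78 (adjusted p = 0.0440). Dimmer probes of *Mpo* differed by 0.56 and 0.35, did not pass and had overlapping groups. Of 25 measured genes of neutrophil granules and granulocyte precursors 21 were higher, with a median of 0.19. An unadjusted p under 0.05 was reached by 8 of the higher members and none of the lower, and by 14 without the control liver 1T-1 and 3 without the code 3R. *Ltf*, lactoferrin, was 10.71, 10.84 and 11.09 against 11.12, 11.33 and 11.44 (0.43 ± 0.10, adjusted p = 0.096), *Prtn3*, proteinase 3, differed by 0.55 and *S100a9*, a chain of calprotectin, by 0.32. By their brightest probes *Ltf* and *S100a9* had no overlap between the groups. With arrays centred on their medians, a scaling that lowers all genes, these probes were at -0.04 and -0.20. A second, dimmer probe of *Ltf* differed by 0.08, with overlapping groups. The promoter of *Ltf* is shown as that of the member with the smallest p whose listed promoter holds the C/EBP letters, and it holds the GATA letters once too (RefSeq, GRCm38.p6, chr9:111019042-111019341, plus strand).
Ltf: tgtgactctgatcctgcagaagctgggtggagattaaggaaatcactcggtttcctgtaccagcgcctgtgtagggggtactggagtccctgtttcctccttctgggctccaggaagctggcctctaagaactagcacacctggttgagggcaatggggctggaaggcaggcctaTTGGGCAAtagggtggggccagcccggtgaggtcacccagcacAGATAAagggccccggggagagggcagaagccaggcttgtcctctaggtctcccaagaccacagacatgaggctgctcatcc
The C/EBP letters were in 42.9% of 21 promoters found for this list, in 36.8% of those of the plasma protein list and in 8.57% of those of all genes tested.

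Megakaryocyte and platelet genes had the highest median of the lists, 0.37 over 23 genes, with 20 higher, 12 of them at an unadjusted p under 0.05. *Itga2b* encodes the platelet integrin chain CD41. By its brightest probe it was 6.62, 7.02 and 7.28 in the controls and 7.35, 7.51 and 8.12 after metformin. The difference was 0.63 ± 0.15 (adjusted p = 0.108), without overlap. A second, dimmer probe differed by 0.64, with overlapping groups. *Alox12*, the platelet lipoxygenase, differed by 0.59 and *Thbs1*, thrombospondin, by 0.46 (kept only through the metformin livers). The mean of the list was 7.09, 7.26 and 7.51 in the control livers and 7.28, 7.47 and 8.01 in the metformin livers. The highest were 3R-2 (7.96) and 3R-6 (8.01), whereas the livers coded 10K (7.28 and 7.30) lay among the controls. Without the code 3R the median relative to all genes turned to -0.08 with 0 members higher at an unadjusted p under 0.05, and the count was 5 without 3R-2, 7 without 3R-6, 6 without the code 1R, 7 without the code 1T and 4 without the 2 arrays with the lowest share detected.

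Cell cycle and DNA replication genes, expressed by dividing blood precursors and hepatocytes alike, were higher in 48 of 52 cases, 18 of them at an unadjusted p under 0.05 (1 without the code 3R) and none lower at that level, with a median of 0.28. *E2f2*, which drives entry into S phase, differed by 0.61, *Chtf18*, which loads the replication clamp, by 0.46, *Bub1b*, of the spindle checkpoint, by 0.42 and *Xrcc1*, of single-strand break repair, by 0.35 (adjusted p = 0.126 to 0.142). *Chtf18* and *Xrcc1* were higher in every metformin liver than in any control. Interferon-stimulated genes were higher in 33 of 37 cases with a median of 0.22, of which 5 had an unadjusted p under 0.05 (2 without 1T-3, 3 without 1T-1 or 3R-1, and 11 without 10K-2). Relative to all genes this median was 0.14 without 1T-1 or 3R-5, 0.13 without 3R-6 and -0.045 without the code 3R. *Zc3hav1*, an antiviral RNA-binding protein, was 5.07, 5.41 and 5.67 against 5.68, 6.17 and 6.51 (0.74 ± 0.15, adjusted p = 0.083), and *Irf7* and *Irf9*, transcription factors of the interferon response, differed by 0.62 and 0.34. In the list of the integrated stress response and serine synthesis 8 of 26 genes were higher (3 without the code 1R and 1 without 3R) and 2 lower at an unadjusted p under 0.05, with a median of 0.11. *Atf5*, a stress-responsive factor, *Aars*, an alanyl-tRNA synthetase, and *Phgdh*, the first enzyme of serine synthesis, differed by 0.46, 0.39 and 0.57 (*Phgdh* was kept only through the metformin livers), and the first and second of these were at -0.02 and -0.07 with arrays centred on their medians.

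The cells that frame the liver plate were close to the controls in level. Medians were -0.06 for 26 macrophage genes, -0.02 for 30 endothelial genes and -0.03 for 28 stellate and mesenchymal genes, with 2 or fewer members in either direction at an unadjusted p under 0.05 in each list. The endothelial list mean was 7.998 to 8.02 in the metformin livers and 7.70 to 8.16 in the controls. Their members with the smallest p were *Msr1*, a scavenger receptor of macrophages (-0.38, kept only through the controls), *Podxl* and *Gpihbp1* of endothelial cells (0.58 and -0.34) and *Lum* of the extracellular matrix (-0.28).

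Whether lower amino acid, methyl group and detoxification genes went with higher genes of blood-forming cells differed between livers and lists. The control livers coded 1R showed such an inverse pairing. Their erythroid means (8.54 and 8.17) were the lowest of the 12 livers and their conjugation means (8.52 and 8.51) the highest. The metformin livers coded 10K had conjugation means of 8.13 and 8.09, below every control. Their granulocyte means (9.12 and 9.09) were above every control but 1T-1, while their erythroid and megakaryocyte means lay within the control range. The control liver 1T-1 had the highest urea cycle mean (10.53) with the highest granulocyte (9.16) and megakaryocyte (7.51) means of its group. The defining markers of the blood-forming cells were detected on all 12 arrays in both groups, which does not give the share of these cells. The list means of the erythroid and megakaryocyte genes overlapped between the groups. The part of the blood-forming cells in the lower hepatocyte levels was not tested.

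**Figure D4:**
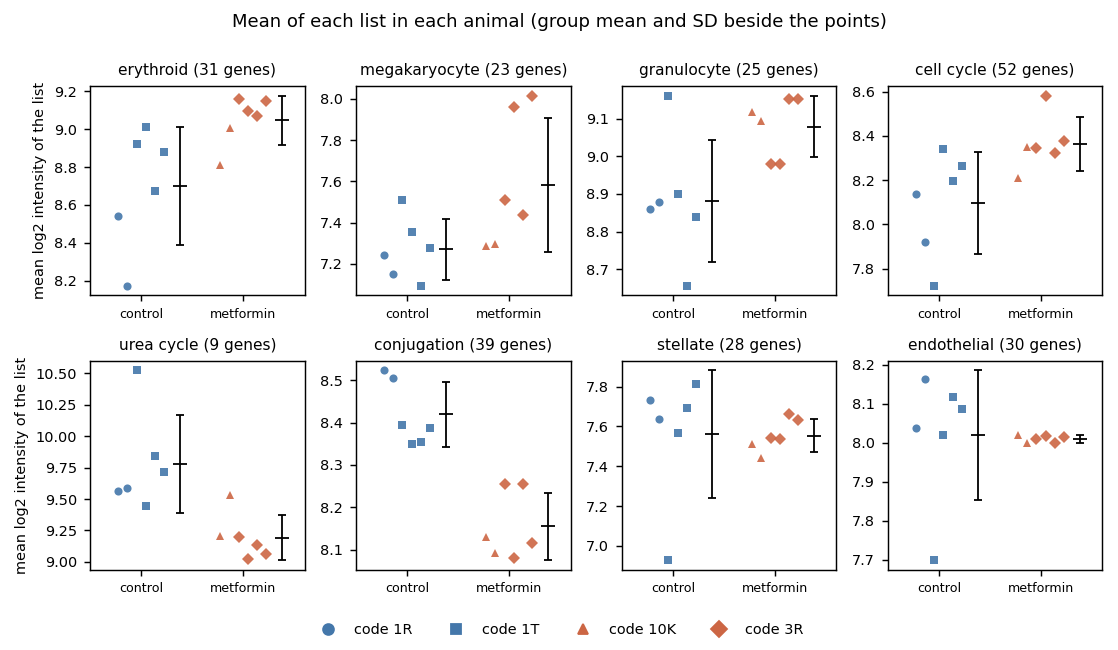
Mean log2 intensity of 8 gene lists in each of the 12 livers, with the animal code as the symbol and the group mean and SD beside the points. The conjugation means do not overlap (8.35 to 8.52 in controls, 8.08 to 8.26 after metformin), the erythroid and megakaryocyte means do, and the control liver 1T-1 is the lowest for stellate (6.93) and endothelial genes (7.70).

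Among the 10 largest rises and 10 largest falls without overlap, the genes not yet described were *Neat1*, a nuclear non-coding RNA (7.44, 8.05 and 8.26 in the control livers, 8.56, 8.82 and 9.51 in the metformin livers, difference 0.92 ± 0.17, adjusted p = 0.054), *Abcb10*, a mitochondrial transporter of erythroid cells (0.79 ± 0.18, adjusted p = 0.099), *Tcn2*, which carries vitamin B12 (-0.59 ± 0.12, adjusted p = 0.086), and the RIKEN gene *4732465J04Rik* (-0.84, adjusted p = 0.134, kept only through the controls, so that a fall was built into its selection). *Arhgef2* and *Zgrf1*, called above, were 5.31 to 5.85 and 5.92 to 6.49 in the control livers and 6.10 to 7.005 and 6.55 to 7.26 in the metformin livers. *Gm26588* rose by 0.75 and *Rep15* by 0.72 (adjusted p = 0.0440 for each of the 4).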

How the data were processed

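Liver RNA of 4-day-old male offspring was measured on 12 arrays (6 metformin, 6 control), 1 animal each. The authors deposited bead intensities per probe, neither normalised nor background-subtracted, each with a detection p-value, and a table of log2 values that they had made with lumi (variance stabilisation and robust splines over all arrays, version not given in the sources used here). From the deposited intensities of these 12 arrays, neqc in limma 3.58.1 (R 4.3.3) corrected the background (normexp, offset 16), quantile-normalised and took log2. The platform annotation gave 1 symbol for 34885 of the 45281 probes, several for 18 and none for 10378, and 10 symbols were updated. Groups were compared with lmFit and eBayes, and p-values were adjusted over all 13296 kept probes (Benjamini-Hochberg). The test was checked on simulated data. The brightest kept probe stood for a gene in lists, and called genes are given with the called probe. Dimmer probes of some list members differed less or in the other direction, and not all are printed. Lists share members and were not tested as sets.

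The members and lists were chosen with earlier results of these data known. Genes eligible to be named were every called gene, the 10 largest rises and falls without overlap, the 4 members of each list with the smallest p, and *Ivd* and *Acaa2*, and some list members are not printed. Alternatives were other background, normalisation, offset, filter, variance, weighting and block settings, the RD livers added, and arrays left out, and list counts with arrays left out were added after the values were seen. Promoters came from RefSeq GRCm38.p6, and genes on chromosome 18 were left out of the choice of promoters to show. Figures were drawn with matplotlib 3.10.9.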

Additional observations from a re-analysis of the deposited data

Results flagged for a closer look

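In 318 groups of 6 livers (a named gene or a list mean in 1 group), an outlying animal was looked for. Its gap to its nearest neighbour had to exceed Dixon's critical share of the group's range. Such an animal was found in 26 groups, with the same animals recurring. Chance gives about 1 in 20 groups when groups are independent. The count of 26 cannot be set against that rate, because many genes were chosen by their p and list means contain named genes. The control liver 1T-1 accounted for 16 of the 26. It was the highest control for *Cps1* (12.66 log2 intensity), *Gnmt* (13.19), *Rnase4* (13.002), *Ang* (12.41), *Asl* (9.04), *Cyp2a5* (10.89) and *Acad8* (6.27), and for the list means of the urea cycle (10.53), cytochromes P450 (9.45) and hepatocyte transcription factors (8.13). It was the lowest control for the list means of stellate and mesenchymal (6.93) and endothelial genes (7.70), for *Acta2* (7.55), *Mest* (6.58), *Chtf18* (6.31) and *Pklr* (4.79). The control liver 1R-1 stood apart for *Echs1* (10.41) and *Hk1* (4.85).

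Among the metformin livers, 10K-1 stood apart for *Hp* (15.18), *Prtn3* (9.65) and the haem synthesis list mean (10.08), and 10K-2 for *Tsc2* (9.05) and the urea cycle list mean (9.53). The liver 3R-1 stood apart for *Cyp2a5* (9.99), 3R-2 for *Neat1* (9.51) and 3R-6 for *Klb* (7.30).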

How the results depend on the processing

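Against 14 called genes (10 higher, 4 lower), 33 were called without background correction (14, 19), 32 with an offset of 50 (14, 18), 36 with a trended and robust variance (15, 21), 66 with array weights (31, 35) and 254 with the 12 RD livers added (92, 163, of which 1 gene had a called probe in each direction). Fewer passed with the deposited log2 values (11, of which 4 higher and 7 lower), with probes detected on all 12 arrays (8, of which 5 and 3) and with the code as a random block (3, of which 2 and 1). The count was 0 in both directions with arrays centred on their medians, with no filter, without the code 1R, without the code 3R and without the 2 arrays with the lowest share detected (limma). At an unadjusted p under 0.05 these gave 5 higher and 215 lower, 1007 and 1099, 448 and 534, 250 and 211, and 478 and 520. Without the code 1T 31 were called (25, 6), of which only 3 were among the 14. Without 10K 22 were called (11, 11), of which 9 were among the 14. Leaving out 1 liver gave 0 to 43 called genes, 0 to 17 higher and 0 to 26 lower. The called genes kept their sign in every setting run, 27 for 9 of them and 26 for *Kyat1*, *Mid1*, *Nrf1*, *Rep15* and *Slc13a3*, whose probes are not detected on all 12 arrays. These settings reuse the same animals. The adjusted p of a called gene was under 0.05 in 6 (*Kyat1*) to 18 (*Hhex* and *Slc13a3*) of them. Its highest value was 0.85 to 0.87.

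With arrays centred on their medians, which moved the median of all genes to -0.27, the log2 difference turned negative for *Aars* (-0.067), *Alad* (-0.062), *Apcs* (-0.0052), *Atf5* (-0.016), *Axl* (-0.16), *Blvrb* (-0.24), *Egfl7* (-0.12), *Hgf* (-0.071), *Igf2bp3* (-0.24), *Irgm1* (-0.092), *Ltf* (-0.043), *Onecut2* (-0.039), *S100a9* (-0.20), *Slc25a37* (-0.0087), *Stk11* (-0.058), *Tcf7l2* (-0.021) and *Tsc2* (-0.25), and the medians of the fetal hepatocyte list (-0.069) and the fatty acid synthesis list (-0.14), relative to all genes, turned too. Without the code 3R, *Axl* (-0.048), *Hp* (0.0044), the glucose list (-0.060) and the megakaryocyte list (-0.078) turned sign, and without the code 1T *Hgf* (-0.018) and the cholesterol list (-0.28) did. The causes were not tested. No paired analysis was possible because the groups compared share no animal and the animal codes of each group occur in that group alone. Dim probes sit near background, where the number of arrays and the signal limit what can be seen.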
